A study of Mus musculus with 18 samples.

Results

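Id2, Id3, Tcf3, Tcf4 and Tcf12 form the mouse circuit of E proteins and their Id inhibitors, and they were followed here across sorted intestinal CD4 T cells. The members were the rows of the deposited table with these 5 gene symbols, among 38392 gene rows in all. RNA was sequenced in 18 libraries, 3 in each of 6 groups. The donor mice were C57BL/6 TNa TNb RAG1-/- Foxp3GFP, so that all transferred T cells carried the receptor chains of 1 clone, taken from a peripherally induced regulatory T cell, could not rearrange others, and reported Foxp3 with green fluorescent protein (GFP). CD4+ donor cells without CD8α or GFP were transferred into C57BL/6 TCRa-/- TCRb-/- hosts, which lack their own αβ T cells but keep other lymphocytes such as B cells and γδ T cells. Cells were recovered from the small intestine 6 weeks later, from the epithelium as intraepithelial lymphocytes (IEL) and from the underlying lamina propria (LP). At both places the sort took 3 populations: cells that had gained CD8α (CD4+CD8α+, DP), cells that had gained Foxp3 (CD4+Foxp3+ regulatory T cells, TR), and cells with neither (CD4+CD8α-Foxp3-, SP). Every group therefore shares the same clonal receptor, RAG1 deficiency, reporter allele and lymphopenic host. The ages, sexes and numbers of animals behind a library are not in the labels, so a p-value here speaks of the scatter of libraries only, which may be partly technical.

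E proteins are transcription factors of the basic helix-loop-helix (HLH) class that bind E-box DNA as dimers and control lineage choices in developing and mature T cells. Tcf3 encodes E12 and E47, Tcf12 encodes HEB and Tcf4 encodes E2-2. Id proteins carry the HLH dimerisation domain but no basic DNA-binding region, so that they hold E proteins in dimers that cannot bind DNA. Id2 is known for its role in effector and tissue-resident lymphocytes and in innate lymphoid cells, and Id3 for its roles in developing, naive and memory T cells. Both are needed for the stability of regulatory T cells.

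All 5 genes are protein coding and none shares exon sequence with another annotated gene (GRCm38, GENCODE M21). Id2 (ENSMUSG00000020644) lies on the minus strand at chr12:25093799-25097140, Id3 (ENSMUSG00000007872) on the plus strand at chr4:136143497-136145755, and Tcf3 (ENSMUSG00000020167) on the minus strand at chr10:80409514-80433647. Tcf12 (ENSMUSG00000032228) lies on the minus strand at chr9:71842688-72111871. The values are sums over each whole gene and do not separate isoforms such as E12 and E47.

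E proteins bind the E-box CANNTG. The 250 bases before the RefSeq start sites of the Id genes (GRCm38.p6) are chr12:25096093-25096342 on the minus strand for Id2 and chr4:136143572-136143821 on the plus strand for Id3. Both windows lie inside the GENCODE gene spans given above, since GENCODE holds isoforms that start further upstream, and 161 bases of the Id2 window and all 250 of the Id3 window are exon in such an isoform. The 89 bases of the Id2 window outside annotated exons, chr12:25096254-25096342, are shown because they hold the only E-box of that inhibitor's window, in capitals, 5′ to 3′ on the gene's own strand.
Id2: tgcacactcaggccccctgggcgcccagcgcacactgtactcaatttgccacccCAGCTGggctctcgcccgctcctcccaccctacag
The motif, with the letters CAGCTG, begins at position -196 from the RefSeq start site, and the Id3 window held 0. CANNTG reads the same on both strands, and 66.2% of 32851 promoter windows of 250 bases held at least 1, with a median of 1. The motif CAGGTG on either strand, or the palindrome CAGCTG, was in 27.7% of the windows. A match is a description of the letters only.

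The libraries held 5093955 to 8851347 recovered reads, and all 5 members were measured in every library. Genes of CD4 T cells were high throughout: the 7 markers Cd3d, Cd3e, Cd3g, Cd247, Cd2, Lck and Cd4 summed to 16950 to 22780 normalised counts, where a normalised count is the read count scaled by the authors with 1 factor per library. Foxp3, on whose reporter cells were sorted, was at 66.2, 164 and 125 normalised counts in IEL TR, at 112.5, 157 and 138 in LP TR, and at or below 39.9 in the other 12 libraries. The IEL TR libraries were the least alike. Their genes had a median SD of 0.55 on the log2 scale against 0.30 to 0.35 elsewhere, and each comparison below that uses them carries that spread.

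Id2 was by far the most abundant member. Divided by the median length of its coding transcripts, its group means ran from 4520 to 10830 normalised counts per kb. On the same scale Tcf12 ran from 44.6 to 84.5, Id3 from 19.9 to 85.4, Tcf3 from 24.3 to 46.5 and Tcf4 from 3.41 to 28.8. The range of Id3 overlaps with those of all 3 E protein genes, and none comes near that of Id2. Of the other Id genes, Id1 reached at most 18.7 normalised counts (in LP TR library 2) and was at 0 in every IEL SP and IEL TR library, and Id4 reached at most 5.10. In these libraries 3 reads correspond to 2.06 to 3.73 normalised counts, so that most Id1 and Id4 values were at or near the limit of detection, and both were left out of the tests by the filter on low values.

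**Figure D1:**
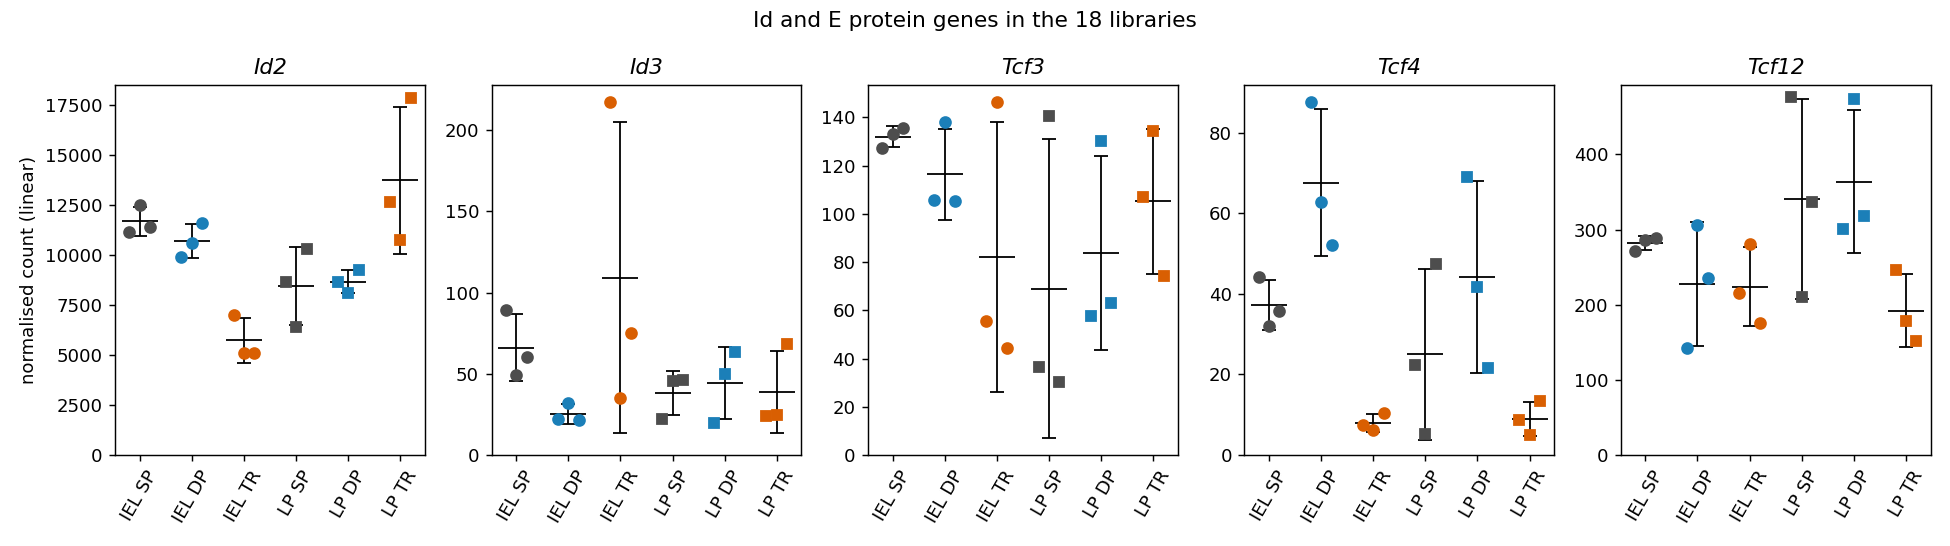
Normalised count (linear axis, a separate scale per gene) of each member in the 18 libraries, with points for libraries, circles for IEL and squares for LP, and the group mean with 1 SD. Id2 is lowest in IEL TR and highest in LP TR, Tcf4 is lowest in both TR groups, and most groups overlap in Id3, Tcf3 and Tcf12, apart from such pairs as IEL DP and IEL SP in Id3 or LP DP and LP TR in Tcf12.

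Among the inhibitors, Id2 was lower in IEL TR than in both other epithelial groups. The IEL SP libraries 1 to 3 held 11177, 12522 and 11402 normalised counts of Id2, the IEL DP libraries 9900, 10632 and 11604, and the IEL TR libraries 7024, 5086 and 5112. All 3 IEL TR libraries lay below all 6 other epithelial libraries, while IEL SP and IEL DP overlapped. Against IEL SP the fitted log2 difference of IEL TR was -1.04 ± 0.14 (SE, limma adjusted p = 0.0242), and the log2 difference of IEL DP against IEL TR was 0.91 ± 0.15 (adjusted p = 0.0303). IEL DP against IEL SP gave -0.13 on the log2 scale (adjusted p = 0.785), and 0.03 after quantile normalisation.

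The calls on Id2 in IEL TR rest on few libraries. Against IEL SP, leaving out IEL TR library 2 or 3 or any IEL SP library took the adjusted p to between 0.0558 and 0.125, and leaving out IEL TR library 1 took it to 0.00499, with log2 differences between -1.20 and -0.96. Against IEL DP, leaving out IEL TR library 2 or 3 or any IEL DP library took the adjusted p to between 0.0699 and 0.137, and the fit without IEL TR library 1 gave 1.07 on the log2 scale at an adjusted p of 0.00804.

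In the lamina propria the order of the groups was different. The LP TR libraries held 12665, 10748 and 17862 normalised counts of Id2, against 8647, 6424 and 10289 in LP SP and 8663, 8098 and 9248 in LP DP. Each LP TR library lay above all 6 of the other lamina propria libraries, the lowest at 10748 against 10289 in the highest LP SP library. LP TR against LP SP gave a log2 difference of 0.70 ± 0.23 (limma adjusted p = 0.139), and LP DP against LP TR gave -0.64 ± 0.17 (adjusted p = 0.0650), so that neither passed the test. LP DP against LP SP gave 0.06 (adjusted p = 0.954).

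The difference between the sites was tested directly. The TR interaction, the log2 difference of TR against SP in the epithelium minus that in the lamina propria, was -1.74 ± 0.30 for Id2 (limma adjusted p = 0.0677). It passed 0.05 without IEL TR library 1 (log2 -1.89, adjusted p = 0.0328), and with DESeq2 on the recovered reads (adjusted p = 8.474e-05), but not with edgeR.

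Set site against site, Id2 in IEL TR lay wholly below LP TR, with a log2 difference of -1.24 ± 0.23 (limma adjusted p = 0.0942). IEL SP lay above LP SP in every library, with 0.49 ± 0.17 (adjusted p = 0.136), and IEL DP above LP DP, with 0.30 ± 0.08 (adjusted p = 0.0677). None of these 3 passed the test. By mean normalised count the order of Id2 was LP TR (13760 ± 3681, SD, n = 3), IEL SP (11700 ± 721), IEL DP (10710 ± 855), LP DP (8670 ± 575), LP SP (8453 ± 1940) and IEL TR (5741 ± 1111). Neighbours in this order overlapped except IEL DP and LP DP, and the highest mean was 2.40 times the lowest.

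Id2 is also a gene of innate lymphoid cells, whose markers were therefore measured beside it. The 7 markers Kit, Il1r1, Ncr1, Il22, Il23r, Klrb1b and Zbtb16 summed to 225 to 703 normalised counts in LP SP, 24.9 to 31.7 in LP TR, 16.0 to 61.9 in LP DP, 8.50 to 102 in IEL SP, 8.55 to 20.5 in IEL DP and 2.75 to 15.7 in IEL TR. The LP SP sums came mostly from Il22, at 526, 76.9 and 154, and Il1r1, with a mean of 91.6. Kit had a mean of 18.8 in LP SP and 23.4 in LP DP. Ncr1 was at 0 in all groups except IEL DP, and Il22, Il23r, Kit and Klrb1b were at 0 in every IEL TR library. Whether the sorted CD4 T cells or innate lymphoid cells transcribed these genes was not tested, so the sums do not show that a group held innate lymphoid cells. The part of innate lymphoid cells in the Id2 values was not tested either. In bulk libraries such as these, fewer cells of a type and less RNA per cell cannot be told apart.

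The second inhibitor, Id3, passed no test in any comparison. In the epithelium the IEL SP libraries held 89.1, 49.0 and 60.2 normalised counts of Id3, the IEL DP libraries 22.4, 32.3 and 21.4, and the IEL TR libraries 217, 35.1 and 74.9. All IEL DP libraries lay below all IEL SP and all IEL TR libraries, and the IEL TR value of library 1 stood apart from the rest of its group. IEL DP against IEL SP gave a log2 difference of -1.33 ± 0.32 (limma adjusted p = 0.413), and IEL DP against IEL TR gave -1.70 ± 0.69 (adjusted p = 0.272). IEL TR against IEL SP gave 0.37 (adjusted p = 0.840), and -0.31 without IEL TR library 1, so that 1 library set its direction.

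In the lamina propria Id3 showed no order. The LP SP libraries held 22.3, 45.5 and 46.4 normalised counts, the LP DP libraries 19.6, 50.1 and 63.1, and the LP TR libraries 23.8, 24.9 and 68.2. The 3 groups overlapped in full, with log2 differences of 0.13 for LP DP against LP SP, -0.07 for LP TR against LP SP and 0.20 for LP DP against LP TR, and adjusted p from 0.877 to 0.966. All 3 IEL SP libraries lay above all 3 LP SP libraries (log2 0.81, limma adjusted p = 0.271). The other comparisons of site gave -0.65 for DP (adjusted p = 0.440) and 1.25 for TR (adjusted p = 0.581), with overlapping libraries. By mean, Id3 ran from 25.4 ± 6.00 (SD, n = 3) normalised counts in IEL DP to 109 ± 95.9 in IEL TR, and no 2 neighbours in the order were free of overlap.

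Id3 made up a small share of the Id transcripts. Per kb of coding transcript, it was 0.183% to 0.786% of Id2 and Id3 together in the 15 libraries outside IEL TR, and 0.680% to 2.99% in the IEL TR libraries, which overlaps with them. B cells also transcribe Id3, and the 7 B cell markers Cd79a, Cd79b, Ms4a1, Cd22, Pax5, Jchain and Mzb1 summed to 52.5 to 305 normalised counts in IEL TR, 148 to 618 in LP TR and 38.7 to 74.2 elsewhere. In IEL TR libraries 1 to 3, of which library 1 had the most Id3, Cd79a was at 2.10, 0.69 and 77.6 and Cd79b at 0, 103 and 58.4. In LP TR library 2, which had the highest sum, Jchain alone was at 471. Mzb1 was at 0 in all groups except LP TR. The part of B cells in the Id3 values was not tested.

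**Figure D2:**
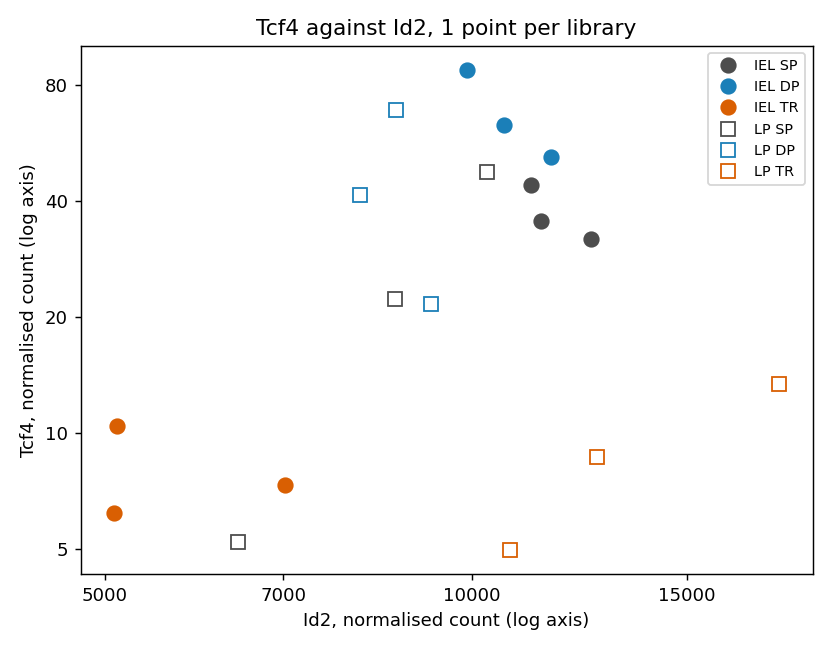
Tcf4 against Id2 in normalised counts on log axes, with 1 point per library, filled circles for IEL and open squares for LP. IEL TR sits at low Id2 and low Tcf4, LP TR at high Id2 and low Tcf4, and IEL DP at the highest Tcf4 of the epithelium.

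Of the E protein genes, Tcf4 (ENSMUSG00000053477, chr18:69343356-69689079, plus strand) varied most, and by mean it was lowest in the regulatory groups of both sites. The IEL TR libraries held 7.35, 6.19 and 10.5 normalised counts of Tcf4, against 44.1, 31.9 and 35.6 in IEL SP and 87.6, 62.9 and 52.1 in IEL DP. The 3 epithelial groups did not overlap at all: every IEL DP library lay above every IEL SP library, and every IEL SP library above every IEL TR library. IEL TR against IEL SP gave a log2 difference of -2.10 ± 0.37 (limma adjusted p = 0.0448), and IEL DP against IEL TR gave 2.92 ± 0.38 (adjusted p = 0.0145). Differences are on the scale of log2(normalised count + 1), which understates the change of a gene as low as Tcf4. The IEL TR values rest on 7, 9 and 12 reads and those of LP TR on 8, 4 and 11, so the size of these differences is loosely bound.

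The step between IEL SP and IEL DP did not pass the test, with a log2 difference of 0.82 ± 0.29 (limma adjusted p = 0.594). The call of IEL TR against IEL SP was lost without any 1 of the 6 libraries (adjusted p 0.0529 to 0.208, log2 -2.29 to -1.95). It was also lost with quantile normalisation (log2 -1.63, adjusted p = 0.109), with no filter (0.0739), with library weights (0.109) and with edgeR (0.0603). That of IEL DP against IEL TR was lost without IEL DP library 1, 2 or 3 (adjusted p 0.0791, 0.0918 and 0.0728) and held without each IEL TR library.

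The lamina propria libraries were more scattered. The LP TR libraries held 8.65, 4.97 and 13.4 normalised counts of Tcf4, the LP DP libraries 69.1, 41.6 and 21.7, and the LP SP libraries 22.3, 5.22 and 47.5. LP DP lay wholly above LP TR, while LP SP spanned both. LP DP against LP TR gave a log2 difference of 2.12 ± 0.54 (limma adjusted p = 0.0505), just outside the threshold; it was inside with edgeR (0.0461), with DESeq2 (0.0111) and without LP DP library 3 (log2 2.54, adjusted p = 0.0426). LP TR against LP SP gave -1.03 ± 0.78 (adjusted p = 0.546), and LP DP against LP SP gave 1.09 ± 0.78 (adjusted p = 0.771).

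Between sites no Tcf4 difference passed the test. The log2 differences of IEL against LP were 0.98 for SP (limma adjusted p = 0.459), 0.72 for DP (0.373) and -0.09 for TR (0.966). The TR interaction was -1.07 (adjusted p = 0.815), so that the data do not show that the difference between TR and SP was unlike in the 2 sites. By mean normalised count the order was IEL DP (67.5 ± 18.2, SD, n = 3), LP DP (44.1 ± 23.8), IEL SP (37.2 ± 6.21), LP SP (25 ± 21.3), LP TR (9.0 ± 4.22) and IEL TR (8.0 ± 2.21). Every pair of neighbours overlapped, although the highest mean was 8.44 times the lowest.

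Tcf4 is a lineage factor of plasmacytoid dendritic cells and is transcribed in stroma, so markers of both were set beside it. Of the 8 plasmacytoid markers, Siglech ran from 3.25 to 20.2 normalised counts over the 18 libraries, Bcl11a stayed at or below 7.03, Cox6a2 at or below 0.94 and Klk1 at or below 2.06. Irf8 and Pacsin1 were highest in TR groups by mean, opposite to Tcf4: Irf8 was at 110, 290 and 309 in LP TR and at 6.30, 241 and 126 in IEL TR against at most 96.3 elsewhere, and Pacsin1 at 36.8, 22.4 and 68.2 in LP TR and at 0, 0.69 and 114 in IEL TR against at most 44.5 elsewhere. Both were lower in LP DP than in LP TR (log2 -2.33, limma adjusted p = 0.0311, and -4.50, adjusted p = 0.00625). Runx2, which T cells also transcribe, was by mean lowest in the TR groups, as Tcf4 was. It was at 120, 228 and 234 in IEL TR and at 395, 427 and 279 in LP TR, against 422 to 796 in the SP and DP libraries. Each TR library lay below all SP and DP libraries of its site. The sum of the list was 159 to 511 in IEL TR, while elsewhere it was 513 to 848, and Runx2 had the highest mean of the list in every group. The 8 stromal and endothelial markers summed to 7.46 to 18.3 in LP TR, 16.8 to 32.3 in IEL TR, 16.5 to 83.0 in the 2 other epithelial groups, 100 to 129 in LP SP, and 18.6 to 68.0 in LP DP. Most of the LP SP sums was Pecam1, at 98.4, 93.3 and 115. Dcn, Col3a1 and Cdh5 did not exceed 2.10 normalised counts in any library. The part of other cells in the Tcf4 values was not tested.

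Tcf3, the E2A gene, passed no test in any comparison, and its spread within groups was wide outside IEL SP. The IEL SP libraries held 127, 133 and 136 normalised counts, the IEL DP libraries 106, 138 and 105, and the IEL TR libraries 55.7, 146 and 44.4. The LP SP libraries held 36.3, 140 and 30.1, the LP DP libraries 57.7, 130 and 63.1, and the LP TR libraries 107, 134 and 74.3. In 5 of 6 groups library 2 was the highest, and the 6 libraries numbered 2 fell between 130 and 146, a narrower range than that of the libraries numbered 1 (36.3 to 127) or 3 (30.1 to 136).

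Library 2 also had the most recovered reads in 4 of the 6 groups. What libraries of 1 number share is not in the labels, and its part in the Tcf3 values was not tested. The largest Tcf3 difference was that of IEL SP against LP SP, at 1.28 ± 0.54 on the log2 scale (limma adjusted p = 0.223). It passed the test only without LP SP library 2 (log2 1.96, adjusted p = 0.0145). TR against SP gave -0.88 in the epithelium (adjusted p = 0.440) and 0.91 in the lamina propria (adjusted p = 0.455), and their difference, the TR interaction, was -1.79 ± 0.82 (adjusted p = 0.590).

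**Figure D3:**
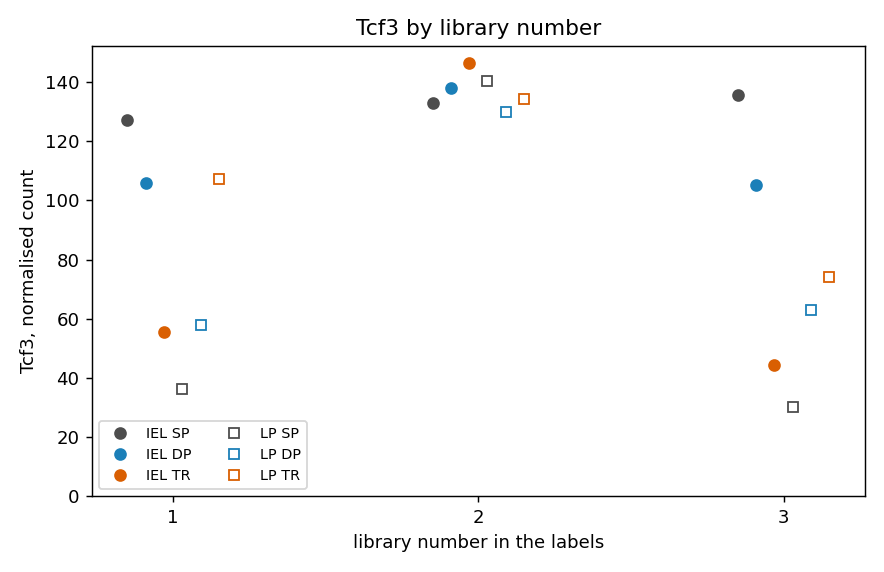
Normalised count of Tcf3 in each library, placed by the library number in the labels, with filled circles for IEL and open squares for LP. The 6 libraries numbered 2 lie between 130 and 146, while those numbered 1 and 3 spread from 30.1 to 136.

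Tcf12, the HEB gene, was the most abundant E protein transcript per kb of coding transcript in the mean of each of the 6 groups. Per kb of all exons, of which Tcf12 has far more, it was below Tcf3 in 4 of them (for IEL SP 18.2 against 32.7 normalised counts per kb) and above it in LP SP and LP DP. The LP DP libraries held 301, 473 and 317 normalised counts and the LP TR libraries 247, 178 and 152, so that LP DP lay wholly above LP TR. The log2 difference was 0.92 ± 0.26 (limma adjusted p = 0.0684), which passed the threshold with DESeq2 (adjusted p = 0.00936) and in no other fit run. The LP SP libraries held 476, 210 and 336, overlapping with both, and LP TR against LP SP gave -0.77 ± 0.33 (limma adjusted p = 0.251).

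In the epithelium Tcf12 showed no separation of groups. The IEL SP libraries held 271, 286 and 289 normalised counts, the IEL DP libraries 142, 306 and 235, and the IEL TR libraries 215, 281 and 176. Log2 differences were -0.38 for IEL DP against IEL SP, -0.36 for IEL TR against IEL SP and -0.02 for IEL DP against IEL TR, with limma adjusted p of 0.832, 0.506 and 0.988, and the last of them turned to 0.17 with equal library totals. Site against site they were -0.19 for SP, -0.71 for DP and 0.22 for TR, with adjusted p of 0.755, 0.222 and 0.818. The highest Tcf12 group mean was 1.89 times the lowest, against 1.92 for Tcf3 and 4.30 for Id3.

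**Figure D4:**
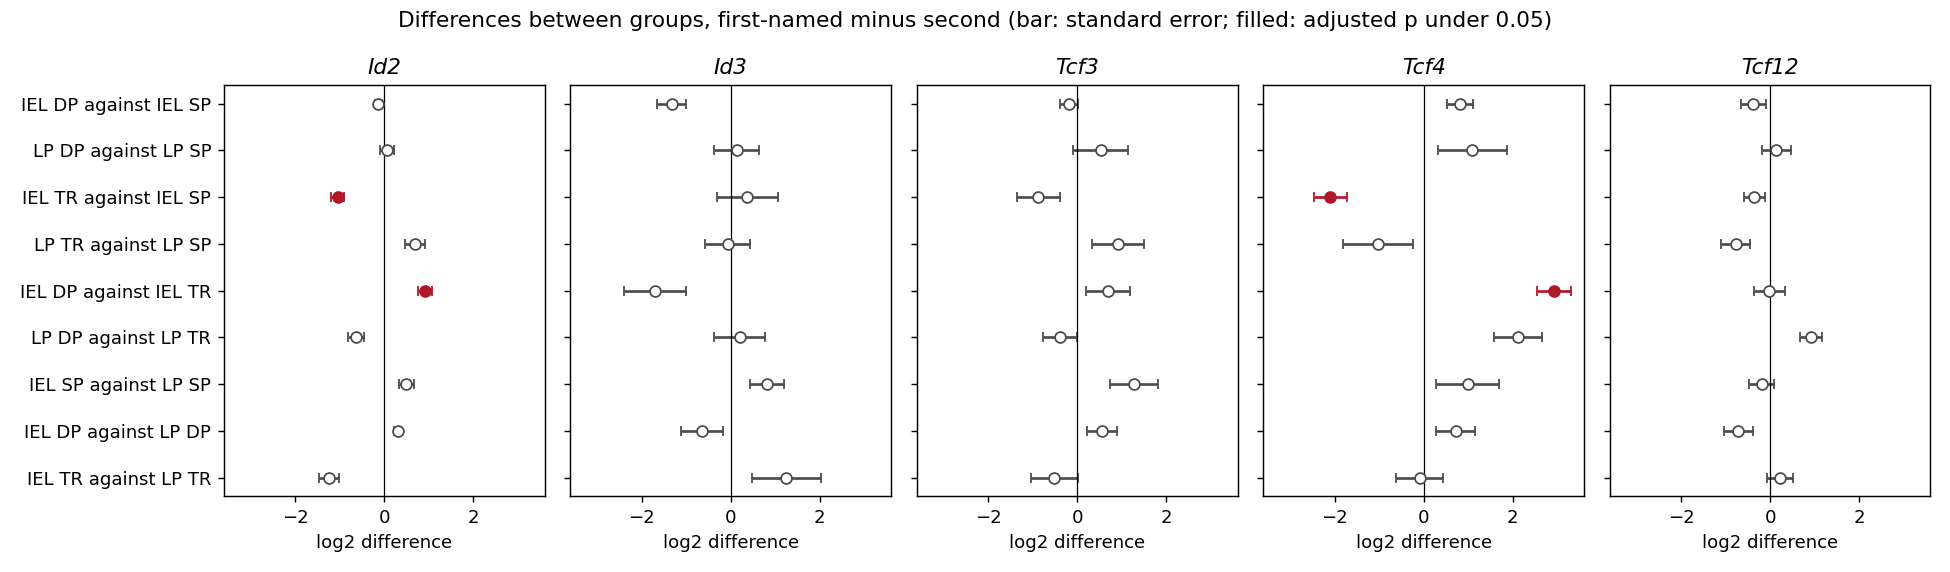
Fitted log2 differences of the 5 members in the 9 pairwise comparisons, first-named group minus second, with bars for 1 SE and filled points for limma adjusted p under 0.05. The 4 filled points are Id2 and Tcf4 in IEL TR against IEL SP and in IEL DP against IEL TR.

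Counted by comparison, the limma calls among the members lay in the epithelium and on the regulatory group. In IEL TR against IEL SP 2 of 5 members were called, where 2.91% of the 15472 genes tested were, and in IEL DP against IEL TR 2 of 5, where 4.14% were. These comparisons share the IEL TR libraries and are not independent of each other. In both, no call held with a replicate block, a term for the library number. With that block limma called Id2 in LP TR against LP SP and in LP DP against LP TR instead. Libraries of the 2 groups did not overlap for 2 members in the first, where 24.3% of all genes did not, and for 3 in the second, where 25.7% did not.

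In the remaining comparisons the main limma fit, without the block, called 0 of 5 members. For IEL DP against IEL SP the share of all genes called was 0.0582%, and 2 members had an unadjusted p under 0.05 (edgeR and DESeq2 called 0); 2 did not overlap, against 12.7% of genes. For LP DP against LP SP it was 0.291%, with 0 members under 0.05 unadjusted, 0 called by either other tool and 0 free of overlap, against 14.3% of genes. In LP TR against LP SP it was 5.52%, with 2 members under 0.05 unadjusted, 0 called by edgeR and 1 by DESeq2, and 1 free of overlap, against 25.3%.

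LP DP against LP TR had the most genes called, 10.6% of those tested. No member passed there, which for so few members is near that share. There 3 members, Id2, Tcf4 and Tcf12, had an unadjusted p under 0.05 and were free of overlap, against 30.7% of all genes, and edgeR called 1 and DESeq2 all 3. For IEL SP against LP SP the share called was 5.93%, with 2 members under 0.05 unadjusted, 0 called by the other tools and 2 free of overlap, against 28.4%. For IEL DP against LP DP it was 7.19%, with 1 member under 0.05 unadjusted, 0 by edgeR, 1 by DESeq2 and 1 free of overlap, against 30.8%. For IEL TR against LP TR it was 0.601%, with the same counts of members, and 19.9% of genes free of overlap.

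The interaction tests called 0 members as well. For DP against SP between sites 0% of genes were called by limma (1006 had an unadjusted p under 0.05, and edgeR called 0 genes and DESeq2 46), with 1 member (Id3, log2 -1.46, limma adjusted p = 0.747) under 0.05 unadjusted and 0 by the other tools. For TR against SP it was 0.168% of genes, with 1 member, Id2, under 0.05 unadjusted, 0 by edgeR and 1 by DESeq2.

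The balance of inhibitors to E proteins was described by the ratio of Id2 plus Id3 to Tcf3 plus Tcf4 plus Tcf12 within a library, each per kb of coding transcript. It was 93.6 to 210 in LP TR, with a median of 101, and 33.8 to 80.4 in the other 15 libraries. By group the ranges were 69.4 to 78.0 in IEL SP, 57.3 to 80.4 in IEL DP, 33.8 to 78.4 in IEL TR, 50.7 to 74.8 in LP SP and 37.0 to 69.8 in LP DP, which all overlap with each other. With the length of all exons of a gene in place of the coding transcript, LP TR ran from 98.5 to 257 and overlapped with 4 of the other 5 groups: LP SP reached 138, IEL DP 111, IEL TR 107.5 and LP DP 104. The 3 LP TR libraries thus stood above the rest on 1 of 2 measures of length. Since these ratios come from transcripts, they say nothing of protein.

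**Figure D5:**
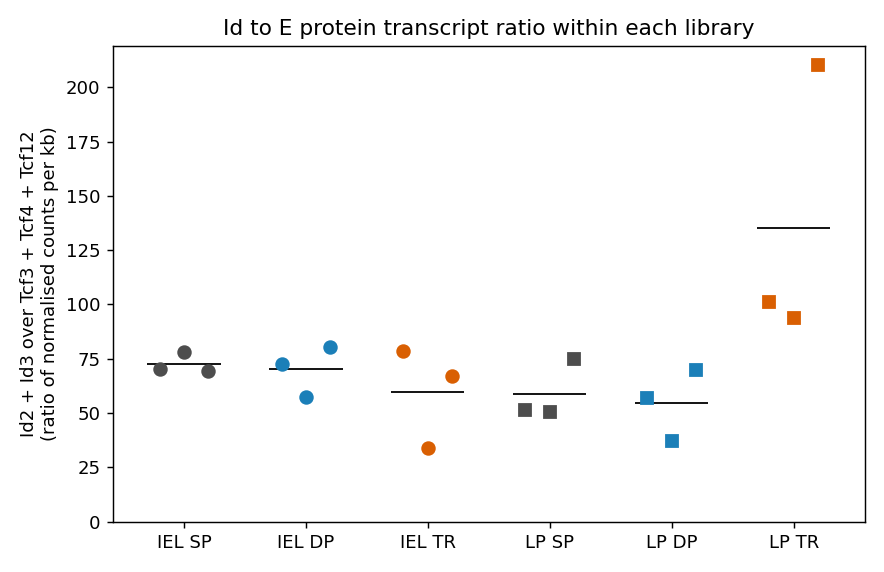
Ratio of Id2 plus Id3 to Tcf3 plus Tcf4 plus Tcf12 in each library, in normalised counts per kb of coding transcript, with a line at each group mean. LP TR lies at 93.6 to 210 and the other 15 libraries at 33.8 to 80.4.

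The Tcf4 share of the E protein transcripts varied by group. Of the summed E protein transcripts per kb of coding transcript, Tcf4 was 4.61% in IEL TR and 4.85% in LP TR by group mean, 9.32% in LP SP, 12.4% in IEL SP, 14.5% in LP DP and 24.2% in IEL DP. By library LP SP ran from 2.21% to 18.6% and overlapped with IEL TR (2.21% to 7.31%) and LP TR (2.33% to 8.49%). The lowest libraries of LP DP (8.78%), IEL SP (10.7%) and IEL DP (18.3%) lay above both TR groups. Tcf12 made up 42.4% to 67.8% by group mean and Tcf3 21.5% to 43.1%. With the length of all exons the Tcf4 shares were far smaller, at 1.02% in IEL TR, 0.950% in LP TR, 2.68% in LP SP, 2.61% in IEL SP, 3.83% in LP DP and 5.60% in IEL DP, while Tcf12 made up 31.3% to 58.0% and Tcf3 39.4% to 66.8%.

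The other HLH genes and LIM partners came from a list of 12, of which 6 passed the filter (Id1, Id4, Tal1, Ascl2, Msc and Lmo1 did not). Lmo4, a LIM-only adaptor of transcription complexes, had 77.1, 138 and 131.5 normalised counts in IEL SP and 119, 61.2 and 130 in IEL DP, against 1.05, 0.69 and 0 in IEL TR. It lay at 96.9, 102 and 99.8 in LP DP and 89.0, 75.4 and 64.9 in LP SP, against 7.57, 0 and 17.0 in LP TR. Each TR library of Lmo4 thus lay below all SP and DP libraries of its site, an order that Tcf4 showed in the epithelium. It fell in IEL TR against IEL SP (log2 -6.22 ± 0.48, limma adjusted p = 0.00433, and 0.0547 without IEL SP library 2) and was higher in IEL DP than in IEL TR (6.03, adjusted p = 0.00457). The 3 IEL TR libraries held 2 reads of Lmo4 in all, so the size of these differences is loosely bound: the mean ratio of IEL SP to IEL TR was 199 with a 95% exact Poisson interval of 55.2 to 1647, which covers counting error only. Lmo4 was also higher in LP DP than in LP TR (4.23, adjusted p = 0.0370, lost without any LP DP library or LP TR library 1), and LP TR against LP SP gave -3.84 (adjusted p = 0.0690).

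The repressor pair Bhlhe40 and Bhlhe41, which bind E-boxes as HLH dimers of their own class, moved differently. Bhlhe41 had 128, 142 and 364 normalised counts in LP TR, against 25.8, 32.8 and 32.4 in LP SP and 29.9, 36.5 and 23.5 in LP DP. It rose in LP TR against LP SP (log2 2.60 ± 0.42, limma adjusted p = 0.0143) and was lower in LP DP than in LP TR (-2.63, adjusted p = 0.0107). Bhlhe40 was a gene of site: it had 174, 239 and 188 in IEL SP against 2272, 3127 and 2590.5 in LP SP (log2 -3.73 ± 0.18, adjusted p = 0.000153), and it was also lower in IEL DP than LP DP (-3.29, adjusted p = 0.00110). Between the TR groups the difference was -2.03 (adjusted p = 0.0362, lost without any library but IEL TR library 1). In LP TR it fell against LP SP by 1.18 (adjusted p = 0.0285, lost without LP TR library 1 or 2 or LP SP library 2 or 3).

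Over that list, 1 of 6 tested was lower in IEL TR against IEL SP (median log2 0.46, against -0.05 over all genes) and 1 higher in IEL DP against IEL TR (median -0.21, against 0.06). In LP TR against LP SP 1 was higher and 1 lower (median -0.41, against -0.01), and likewise in LP DP against LP TR (median -0.06, against 0.01). In each comparison of site 1 was lower in the epithelium, and none was called in DP against SP. Over all genes the shares called were 2.91%, 4.14%, 5.52% and 10.6% in the comparisons with TR, in the order given. Between sites they were 5.93% for SP, 7.19% for DP and 0.601% for TR. E protein cofactors and turnover factors made a list of 8, of which all but Cbfa2t3 passed the filter. In all 11 comparisons 1 call was made: Kat2b, an acetyltransferase coactivator, was lower in LP DP (72.2, 64.6 and 109 normalised counts) than in LP TR (141, 190 and 170), with a log2 difference of -1.04 (limma adjusted p = 0.0479, lost in 5 of 6 fits without 1 library). The median log2 of the list there was -0.02, against 0.01 over all genes, of which 10.6% were called.

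Genes known as E protein targets formed a list of 21, of which 13 passed the filter; Ptcra, Rag1, Rag2, Notch3, Gfi1b, Pax5, Vpreb1 and Igll1 did not. Cxcr5, the chemokine receptor of follicular T cells, had 386, 34.4 and 240 normalised counts in IEL TR and 34.6, 72.1 and 76.7 in LP TR, and at most 5.80 in the other 12 libraries. Each TR library lay above all SP and DP libraries of its site. Cxcr5 passed the filter on low values only through these TR libraries, so its calls below are not independent of that filter. It rose in IEL TR against IEL SP (log2 6.41 ± 0.98, limma adjusted p = 0.0329) and in LP TR against LP SP (4.58, adjusted p = 0.0156), and was lower in LP DP than in LP TR (-5.03 ± 0.58, adjusted p = 0.00287) and in IEL DP than in IEL TR (-6.26, adjusted p = 0.0236). The LP DP call held without each library in turn; the others were lost in 2 to 4 such fits, without IEL TR library 3 or any IEL SP library, without LP TR library 2 or 3, and without any IEL DP library or IEL TR library 3. The IEL SP, IEL DP and LP DP libraries held 3 reads of Cxcr5 per group, and the ratio of IEL TR to IEL SP means was 244, with a 95% exact Poisson interval of 83.6 to 1185 on those reads. Cxcr5 is also a B cell gene, and the sum of the B cell markers above reached its highest values in the TR groups. By library the markers and Cxcr5 did not keep 1 order. In IEL TR libraries 1 to 3, Cd79a was at 2.10, 0.69 and 77.6 and Cd79b at 0, 103 and 58.4. The highest sum, in LP TR library 2, was mostly Jchain, at 471. The part of B cells in the Cxcr5 values was not tested.

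Il7r, the interleukin 7 receptor, and Dtx1, a Notch pathway ubiquitin ligase, were lower in lamina propria regulatory cells. Il7r had 1485, 1587 and 2090 normalised counts in LP TR against 4178, 4259 and 4190 in LP SP (log2 -1.31 ± 0.14, limma adjusted p = 0.00300). In the epithelium all IEL TR libraries of Il7r, at 1954, 2138 and 3062, also lay below all IEL SP libraries, at 3693, 5819 and 5181. That difference did not pass the test (log2 -1.04, adjusted p = 0.0894), and IEL TR overlapped with IEL DP. Dtx1 had 294, 344 and 262 in LP TR, 572, 729 and 614 in LP SP and 793, 807 and 845 in LP DP. Between LP TR and LP SP its log2 difference was -1.09 (adjusted p = 0.0129, and 0.0515 without LP TR library 1) and 1.45 ± 0.14 for LP DP against LP TR (adjusted p = 0.00132). Foxp3 was on the list too, but its reporter defined the sort, so its calls in LP TR against LP SP and LP DP against LP TR only restate the gate.

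The remaining named targets were called mostly between sites. Cdkn1a, the cell cycle inhibitor p21, had 254, 531 and 552 normalised counts in IEL SP against 1535, 1762 and 2589 in LP SP (log2 -2.18, limma adjusted p = 0.0115). It was also lower in IEL DP than in LP DP (-1.93, adjusted p = 0.0370, lost in 5 of 6 fits without 1 library) and in LP DP than in LP TR (-1.14, adjusted p = 0.00754). The IEL TR libraries, at 1014, 1207 and 1095, lay above all IEL SP libraries (1.39, adjusted p = 0.0925). All LP DP libraries lay below all LP SP libraries (-0.98, adjusted p = 0.205). Neither of these 2 differences passed the test. Foxo1, a factor of quiescent and recirculating T cells, was lower in IEL DP (83.4, 140 and 153) than in LP DP (648, 471 and 545), with a log2 difference of -2.17 ± 0.26 (adjusted p = 0.00703), and in IEL SP than in LP SP (-1.15, adjusted p = 0.0339, lost in 5 of 6 fits without 1 library).

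By comparison, targets were called 1 higher and 0 lower in IEL TR against IEL SP (median log2 0.16, against -0.05 over all genes), 2 and 2 in LP TR against LP SP (0.43, against -0.01), 0 and 1 in IEL DP against IEL TR (-0.72, against 0.06) and 2 and 4 in LP DP against LP TR (-0.79, against 0.01). Between sites, 0 higher and 2 lower were called for SP (-0.09, against 0.02) and for DP (0.09, against 0.05), and none for TR or in DP against SP. Over all genes the shares called were 2.91%, 5.52%, 4.14% and 10.6% in the comparisons with TR, in the order given. Between sites they were 5.93% for SP and 7.19% for DP. Foxp3, whose reporter defined the sort, is among those higher in LP TR against LP SP and lower in LP DP against LP TR. So is Cxcr5, which passed the filter only through the TR libraries. Cxcr5 is also the only target called in IEL TR against IEL SP and in IEL DP against IEL TR, so these counts are not independent of the filter. Apart from Foxp3 and Cxcr5, Dtx1 was higher and Cdkn1a lower in LP DP against LP TR, and the list gives no single direction.

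The fourth list held 12 known regulators of Id genes, of which 11 passed the filter (Egr3 did not). Tbx21, which encodes T-bet, had 44.4, 47.2 and 43.8 normalised counts in LP TR against 176, 384 and 387 in LP SP and 446, 350 and 561 in LP DP. It fell in LP TR against LP SP (log2 -2.69 ± 0.34, limma adjusted p = 0.00491) and was higher in LP DP than in LP TR (3.27 ± 0.22, adjusted p = 0.000360), and both held without each library. In the epithelium all IEL TR libraries of Tbx21, at 160, 79.7 and 27.9, also lay below all IEL SP libraries, at 299, 251 and 321. That difference did not pass the test (log2 -2.01, adjusted p = 0.179). Nfil3, a basic leucine zipper factor upstream of Id2 in innate lymphocytes, had 300, 376 and 612 in LP TR against 89.0, 154.5 and 96.2 in LP SP (log2 1.89, adjusted p = 0.0194, lost without LP TR library 2 or LP SP library 1 or 3). It was lower in the epithelium, by 2.84 on the log2 scale below LP SP in IEL SP (adjusted p = 0.0142), and by 3.72 below LP DP in IEL DP (adjusted p = 0.00233).

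The interleukin 2 and interleukin 7 signal transducers Stat5a and Stat5b were high in LP TR beside the other lamina propria groups. Stat5b had 752, 699 and 920 normalised counts in LP TR, 457, 356 and 436 in LP SP and 414, 273 and 333 in LP DP; it was lower in LP DP than in LP TR (log2 -1.22, limma adjusted p = 0.00901), while the rise against LP SP (0.92, adjusted p = 0.0234) was lost in 5 of 6 fits without 1 library and the fall of IEL TR against LP TR (-1.19, adjusted p = 0.0479) in all 6. Stat5a was lower in LP DP than in LP TR (-1.37, adjusted p = 0.00306), in IEL SP than in LP SP (-1.50, adjusted p = 0.00771) and in IEL DP than in LP DP (-0.87, adjusted p = 0.0304, lost in 5 of 6).

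Of the other regulators, Gfi1, a zinc finger repressor, was higher in IEL DP (439, 390 and 282 normalised counts) than in LP DP (103, 104 and 132), with a log2 difference of 1.69 (limma adjusted p = 0.00880), and in IEL SP than in LP SP (2.14, adjusted p = 0.0341, lost in 4 of 6 fits without 1 library). Smad3, a TGF-beta signal transducer, was lower in LP DP than in LP TR (-1.56, adjusted p = 0.0264, lost without LP DP library 2 or LP TR library 1 or 2). Egr1, an early response gene, was lower in LP TR than in LP SP (-1.05, adjusted p = 0.0283, lost in 5 of 6).

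In all, the regulators were called 3 higher and 3 lower in LP TR against LP SP (median log2 0.23, against -0.01 over all genes), 1 and 3 in LP DP against LP TR (-0.05, against 0.01), 1 and 2 in IEL SP against LP SP (-0.40, against 0.02) and in IEL DP against LP DP (-0.61, against 0.05), and 0 and 1 in IEL TR against LP TR (-0.98, against -0.05). Over all genes the shares called in these comparisons were 5.52%, 10.6%, 5.93%, 7.19% and 0.601%, in the order given. None of the regulators was called in the 3 comparisons within the epithelium.

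The genes most like each member over the 18 libraries were found by Pearson correlation of log2 values, as a description in which the libraries share their groups and numbers. For Id2 the highest were Zc3h15 (0.750), Yipf6 (0.736) and Tbc1d31 (0.736) and the lowest Maf1 (-0.775) and Xab2 (-0.735). For Tcf4 they were Ttc3 (0.903), Ddc (0.881) and Dhodh (0.872), against Ncf4 (-0.927) and H2-Bl (-0.919). Genes like Id3 included Zkscan6 (0.785) and Bola1 (0.776), against Rap2c (-0.808) and Xdh (-0.794). For Tcf3 the highest were Gstt2 (0.852), Zdhhc6 (0.807) and Dlgap5 (0.803), against Rpl31-ps8 (-0.788) and Cd9 (-0.748). For Tcf12 they were Pirb (0.797), Slc31a1 (0.755) and Ostf1 (0.703), against Adck4 (-0.775) and Stard3 (-0.754).

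The members themselves followed each other little across the 18 libraries, with 0.36 for Id2 and Tcf4, 0.14 for Id2 and Tcf3 and -0.06 for Tcf3 and Tcf4. Taken as deviations from the group means, the same pairs gave 0.55, -0.68 and -0.71. These were the strongest pairs, and the others lay between -0.25 (Id3 and Tcf12) and 0.48 (Id2 and Id3). Library to library within a group, Tcf3 was thus low where Id2 and Tcf4 were high, and all of these share the library and its depth. They also share the library number: library 2 was the highest in 5 groups for Tcf3, in 1 for Id2 and in 0 for Tcf4.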

How the data were processed

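The deposited table gives 1 signal per gene and library, which is a count of reads that the authors scaled by a single factor for the whole library; this was read from the values, of which 100% were whole multiples of 1 step within 0.1 of a step. How the factors were made and the versions of TopHat and HTSeq, which the submitters' processing notes name with the mm10 build (GRCm38), are not given in the sources used here. Sorted cells were lysed, RNA was bound to beads and libraries were made with Nextera XT, per the labels, a kit that does not mark strand. Of the 38392 identifiers 36639 were in GENCODE M21, and Adgre1 and Jchain were matched by identifier. The median library held 5903164.5 recovered reads (lowest 5093955, highest 8851347). Without molecular identifiers PCR copies are not separate molecules, so limits from read counts cover counting error only.

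Analysis used log2(signal + 1). A gene needed 10 or more in 3 or more of the 18 libraries, which 15472 met, and these were fitted in limma 3.58.1 (R 4.3.3, trended and robust variance), with the libraries of the groups compared only, since IEL TR varied more than the rest. Benjamini-Hochberg adjustment ran over all genes tested, and a call is an adjusted p under 0.05. The fit was also run on simulated reads, with a common dispersion per group and no effect of the library number. No statement here rests on that run, which cannot show how the spread of single genes or the library number changes the calls. Alternatives were equal library totals, quantile normalisation, pseudocounts of 0.5 and 5, no filter, all 18 libraries with pooled variance or library weights, edgeR 4.0.16 (quasi-likelihood) and DESeq2 1.42.0 on recovered reads, a replicate block, and each library left out. Permuting 3 against 3 libraries exactly cannot bring any one value under 0.05, so this was not done.

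The members, the gene lists and the tests were chosen with earlier results of these data known. Named genes are the 5 members, Id1 and Id4, for each list and comparison the called genes among the 4 with the smallest p, and for each member the 3 genes with the highest and the 2 with the lowest correlation, leaving out predicted genes and receptor segments, among genes with a mean of at least 50. A few genes that the lists and this rule name are not reported here. Lengths are the median over the coding transcripts of a gene, or all its exons. Libraries of 1 number were not treated as pairs in the main fit. Residual correlations between groups ran from 0.00053 to 0.0887, and 0 of 45 exceeded 0.1. All were positive, however, and all 18 libraries correlated best with libraries of their own number. The replicate block fits that number, and the calls among the members changed with it.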

Additional observations from a re-analysis of the deposited data

Results flagged for a closer look

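Id2 was flagged because regulatory cells lay on opposite sides of the other cells in the 2 sites. For TR against SP, every IEL TR library lay below every IEL SP library (log2 difference -1.04), and every LP TR library above every LP SP library (0.70). The difference between the sites was tested by the TR interaction (log2 -1.74, limma adjusted p = 0.0677).

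For DP against TR the signs were also opposite, with 0.91 on the log2 scale in the epithelium and -0.64 in the lamina propria, again with no overlap of libraries in either. That difference was not tested. Both patterns rest on the same TR libraries.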

How the results depend on the processing

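Of the 5 members, limma called 2 in IEL TR against IEL SP, and 1 with quantile normalisation, no filter, library weights or edgeR, with 0 to 1 when 1 library was left out. It called 2 in IEL DP against IEL TR, with 0 to 2 when 1 library was left out. In LP DP against LP TR it called 0, and 1 with equal library totals, quantile normalisation, a pseudocount of 5 or edgeR, 2 with no filter, pooled variance or library weights, 3 with DESeq2, and 0 to 1 with 1 library left out. Pooled variance, library weights and DESeq2 each called 1 in LP TR against LP SP, in IEL TR against LP TR and in the TR interaction, as did equal library totals in the last, and quantile normalisation and DESeq2 each called 1 in IEL DP against LP DP. Leaving out 1 library gave 0 to 1 in the TR interaction and in IEL SP against LP SP. The cause was not tested.

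With the replicate block the calls were 0 in IEL TR against IEL SP, 0 in IEL DP against IEL TR, 1 in LP TR against LP SP (Id2, log2 0.70, adjusted p = 0.0169) and 1 in LP DP against LP TR (Id2, log2 -0.64, adjusted p = 0.0331). In the epithelium the block gave Id2 an adjusted p of 0.104 against IEL SP and 0.117 against IEL DP, and Tcf4 0.154 and 0.0864. The pairing rests on numbers alone, and all 18 libraries correlated best with libraries of their own number, a hint from the data and not from the design.

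Some differences that passed no test changed sign. For Id2 quantile normalisation gave 0.034 in IEL DP against IEL SP and 0.014 in the DP interaction, and LP DP against LP SP gave -0.12 (without LP SP library 2) to 0.22 without 1 library. For Id3 in IEL TR against IEL SP library weights gave -0.16 and leaving out 1 library -0.31 (without IEL TR library 1) to 0.98; in the TR interaction leaving out 1 gave -0.25 (the same library) to 1.05. Id3 in LP TR against LP SP gave 0.019 with edgeR, 0.028 with DESeq2 and -0.55 to 0.19 without 1 library, in LP DP against LP SP -0.21 to 0.62, and in LP DP against LP TR -0.13 to 0.69. Tcf12 in IEL DP against IEL TR gave 0.17 with equal library totals, 0.018 with quantile normalisation, 0.056 with library weights, 0.034 with edgeR, 0.053 with DESeq2 and -0.27 to 0.29 without 1 library. Without 1 library it gave -0.50 to 0.085 in IEL SP against LP SP and -0.17 to 0.42 in LP DP against LP SP. Tcf4 in IEL TR against LP TR gave 0.50 with quantile normalisation and -0.42 to 0.22 without 1 library, and in the DP interaction 0.018 with DESeq2 and -0.94 to 0.54 without 1 library. The other 906 member values kept their direction.

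Counts over all genes moved widely. For IEL TR against IEL SP the count was 450 genes, against 63 with the replicate block, 1799 with pooled variance and 37 to 629 with 1 library left out, and in IEL DP against IEL TR 640, against 195, 2170 and 143 to 817. In LP DP against LP TR 1646 were called, against 2414 with DESeq2 and 1045 to 1211 with 1 library left out. Equal library totals shifted the median of all genes by -0.14 and 0.18 in the first 2 and took the split of higher to lower calls from 231 and 219 to 164 and 236, and from 275 and 365 to 299 and 235.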
